A study of Mus musculus with 93 samples.

Results

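The genes described here are 29 members of the Sox and T-box families of transcription factors, 15 Sox genes and 14 T-box genes, out of 33924 gene names measured by RNA-seq in mouse embryonic stem cells. They are all the gene names made of Sox or Tbx and a number, together with T and Eomes, which makes 33 names. Sox2, Sox7, Sox17 and Tbx3, which belong with pluripotency and primitive endoderm genes, were set apart by the rule and are used only as context. Members were chosen by name and not by any measured value.

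The cells were of the R1 mouse embryonic stem cell line, cultured with serum and leukaemia inhibitory factor (LIF), a cytokine that keeps such cells undifferentiated. Of the 93 samples of the series, the 12 RNA-seq libraries were used, in 4 groups of 3. In set 1 the genotypes were wild type and Ring1b I53A, a point mutation of the subunit that gives Polycomb repressive complex 1 (PRC1) its ability to place ubiquitin on histone H2A. In set 2 they were wild type and H1b/c/d/e-QKO, a quadruple knockout of linker histone genes, whose proteins bind nucleosomes and the DNA between them. All 4 groups share the line and the medium, and no other allele or agent is labelled. The labels do not say how many clones carry each genotype, nor whether replicates were separate cultures, so the p-values rest on a spread between libraries that may be technical.

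Sox proteins bind DNA through an HMG box that bends the helix, and T-box proteins through a T-box domain first described in T (Brachyury). Both families act at the points where a pluripotent cell commits to a lineage. Some subgroups share a tissue, such as SoxB in neural progenitors and SoxE in neural crest and cartilage. Other tissues are shared across subgroups: T and Eomes act in the primitive streak, and Tbx5, Tbx18 and Tbx20 in the heart. In embryonic stem cells many of these genes are known targets of Polycomb repression and are held at low levels, while Sox2 and Tbx3 are part of the pluripotency network.

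Total counts ran from 12585621 to 23378930 per library, of which the 29 members held 2070 to 4254, or 144.8 to 195.2 CPM (counts relative to the library total), and 24 to 26 members had at least 1 count in a library. In set 1, replicate 3 stood apart from replicates 1 and 2 of its group (a chi-square per degree of freedom of 21.2 to 27.3 against 2.93 and 4.06), and its tables are named in another style. For I53A replicates 1 and 2 the table names carry each other's number, and the replicate numbers below follow the labels. Rnf2, the gene of Ring1b, had 3427, 3380 and 2324 counts in the wild type libraries of set 1 and 1771, 1702 and 1086 in I53A. It fell by 1.0 ± 0.08 on the log2 scale (SE, edgeR adjusted p = 5.63e-05, by the test described below). This lower transcript level and the point mutation cannot be told apart here. The linker histone transcripts did not follow the QKO label. Hist1h1b had 4, 9 and 2 counts in wild type and 62, 53 and 72 under the QKO label, and Hist1h1c 143, 173 and 205 against 174, 129 and 202. Hist1h1d (3 to 14 counts in wild type, 5 to 15 in the libraries labelled QKO) and Hist1h1e (0 to 6 and 3 to 12) were low throughout. All 4 genes thus had counts in every library labelled QKO, and Hist1h1b had more than in any wild type library, so the label is used as a name only. Counts per gene do not show where in the gene a deletion lies. All 10 markers of embryonic stem cells, Nanog and Esrrb among them, were measured in every group, with summed levels of 4850 to 7700 CPM.

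Promoter windows of 300 bases, from 250 before the start of transcription to 50 after it, were taken from RefSeq on GRCm38.p6 (the counts use mm9). They were found for 22 of the 29 members, as 30 windows. A total of 6 members changed in both comparisons described below, and the 5 of them with a window are shown because the direction of change can be set beside the sequence. CpG dinucleotides, which Polycomb target promoters often hold in large numbers, are in capitals. Sox11 lies at chr12:27342669-27342968 (minus strand), Sox13 at chr1:133424163-133424462 (minus), Sox15 at chr11:69654787-69655086 (plus), Eomes at chr9:118477939-118478238 (plus) and Tbx20 at chr9:24774254-24774553 (minus), each read 5′ to 3′ in the direction of the gene.
Sox11: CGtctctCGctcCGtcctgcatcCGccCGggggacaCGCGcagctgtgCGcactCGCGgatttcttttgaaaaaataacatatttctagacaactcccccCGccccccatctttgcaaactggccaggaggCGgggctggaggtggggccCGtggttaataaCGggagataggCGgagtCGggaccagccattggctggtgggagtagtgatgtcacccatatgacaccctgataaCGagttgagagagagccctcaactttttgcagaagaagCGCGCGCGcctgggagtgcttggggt
Sox13: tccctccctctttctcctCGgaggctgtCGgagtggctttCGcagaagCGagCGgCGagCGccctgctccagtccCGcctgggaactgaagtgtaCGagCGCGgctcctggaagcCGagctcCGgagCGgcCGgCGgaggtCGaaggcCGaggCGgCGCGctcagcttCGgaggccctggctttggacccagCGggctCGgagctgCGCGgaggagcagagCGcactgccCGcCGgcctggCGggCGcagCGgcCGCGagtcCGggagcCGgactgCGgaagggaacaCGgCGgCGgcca
Sox15: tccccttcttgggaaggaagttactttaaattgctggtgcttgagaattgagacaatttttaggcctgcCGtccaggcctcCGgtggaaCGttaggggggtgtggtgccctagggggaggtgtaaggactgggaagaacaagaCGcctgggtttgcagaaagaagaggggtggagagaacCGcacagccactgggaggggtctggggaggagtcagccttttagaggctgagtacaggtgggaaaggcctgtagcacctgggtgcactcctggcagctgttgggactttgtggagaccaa
Eomes: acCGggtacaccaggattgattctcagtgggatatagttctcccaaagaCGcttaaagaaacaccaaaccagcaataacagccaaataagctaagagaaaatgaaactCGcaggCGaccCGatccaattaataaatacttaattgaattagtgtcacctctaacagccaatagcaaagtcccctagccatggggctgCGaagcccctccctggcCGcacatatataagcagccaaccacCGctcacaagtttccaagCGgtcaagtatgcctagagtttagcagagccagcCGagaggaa
Tbx20: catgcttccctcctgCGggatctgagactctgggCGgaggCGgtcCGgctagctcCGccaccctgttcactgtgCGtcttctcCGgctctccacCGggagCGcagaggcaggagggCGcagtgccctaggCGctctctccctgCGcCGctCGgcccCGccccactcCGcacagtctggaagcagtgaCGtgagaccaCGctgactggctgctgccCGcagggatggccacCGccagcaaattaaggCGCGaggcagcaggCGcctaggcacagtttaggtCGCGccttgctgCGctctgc

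The Sox13 window held 40 CpG, more than in 96.1% of the 32851 promoter windows of all genes, and the Sox15 window held 5, more than in 38.0%. Sox11 held 21, Tbx20 26 and Eomes 10. Eomes was above 56.5% of all windows and Tbx20 above 83.1%. Both Sox13 and Sox15 fell in I53A, from the 2 ends of this range, while Sox11, Tbx20 and Eomes, which rose there, lay between them. Over all windows the median was 7 CpG (quartiles 3 and 20), and over the 30 member windows it was 11.5. A set of 4 short motifs was searched on both strands, and none of them contains another. The T-box half-site AGGTGTGA (reverse TCACACCT) was in 1.28% of all windows and in 0 of 30 member windows. The SOX heptamer AACAATG (reverse CATTGTT) was in 3.78% of all windows and in 1 member window, of Sox6. TATAAA (reverse TTTATA) was in 13.6% of all windows and in 4 of the member windows, and CCAAT (reverse ATTGG) in 37.4% and 14. The Eomes window above holds CCAAT 2 times and that of Sox11 holds its reverse once.

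**Figure D1:**
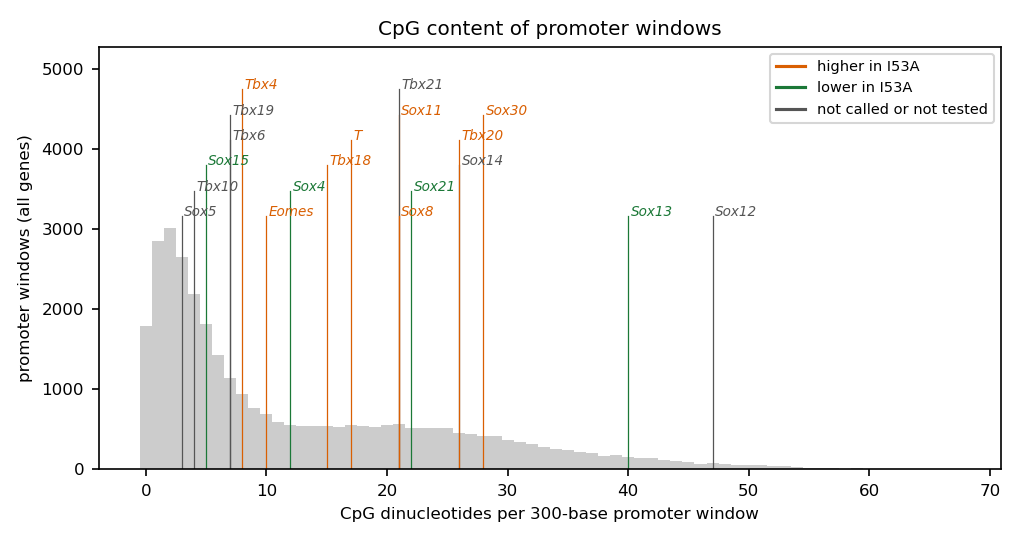
Number of CpG dinucleotides (x axis) in 300-base promoter windows, with all 32851 windows as grey bars (y axis, number of windows) and each member with a single window as a labelled line, coloured by its call in I53A; line heights only separate the labels. Members higher in I53A run from Tbx4 with 8 CpG to Sox30 with 28, and members lower from Sox15 with 5 to Sox13 with 40, so their ranges overlap.

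Levels of different genes were compared per length of gene, as RPKM, that is CPM per kilobase of exon. In wild type cells of set 1, Sox15, a gene of the SoxG subgroup known in embryonic stem cells and placenta, stood highest at 47.9 ± 2.98 RPKM (SD, n = 3). Sox12 followed at 9.55 ± 0.442, then Sox4 at 5.64 ± 0.907, Sox13 at 5.62 ± 0.55, Sox11 at 3.06 ± 0.294 and Eomes at 1.81 ± 0.308. Sox4 and Sox13 did not differ beyond their spread. The Sox4 value is uncertain, because 54.6% of its exon bases lie opposite the antisense gene Gm17419, which had 0 counts in all 12 libraries, and no strand option is in the file headers. Sox21 shares 18.8% of its exon bases with Gm4675 on the other strand, Sox5 9.25% with 4933415D12Rik and Sox15 3.6% with Mpdu1.

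The order differed between the sets. In wild type cells of set 2, Sox12 was first at 20.4 ± 1.58 RPKM and Sox15 second at 12.5 ± 1.02, ahead of Sox13 (9.72 ± 0.479), Sox11 (5.07 ± 0.174), Sox4 (4.89 ± 0.0845) and Eomes (3.75 ± 0.206). In CPM, scaled over all 12 libraries, the wild types of sets 1 and 2 stood at 41.3 ± 2.56 and 10.7 ± 0.874 for Sox15, and at 39.8 ± 1.84 and 85.0 ± 6.61 for Sox12. For Tbx21, which directs Th1 cells, they stood at 2.21 ± 0.294 and 0.561 ± 0.226. Wild type levels were not tested between sets, and culture, sequencing and alignment of the sets cannot be told apart here.

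In every group most of the family signal came from few genes. Sox12, Sox15, Sox4, Sox13 and Eomes together held 85.0 to 85.9% of the member counts in the wild type libraries of set 1 and 65.7 to 67.5% in I53A. In set 2 they held 87.4 to 88.1% in wild type and 84.3 to 84.9% in the libraries labelled QKO. At the other end, Tbx22, a palate gene, had 0 counts in all 12 libraries, and Sox14, a SoxB2 gene of the neural tube, had 1 count in 1 library labelled QKO.

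**Figure D2:**
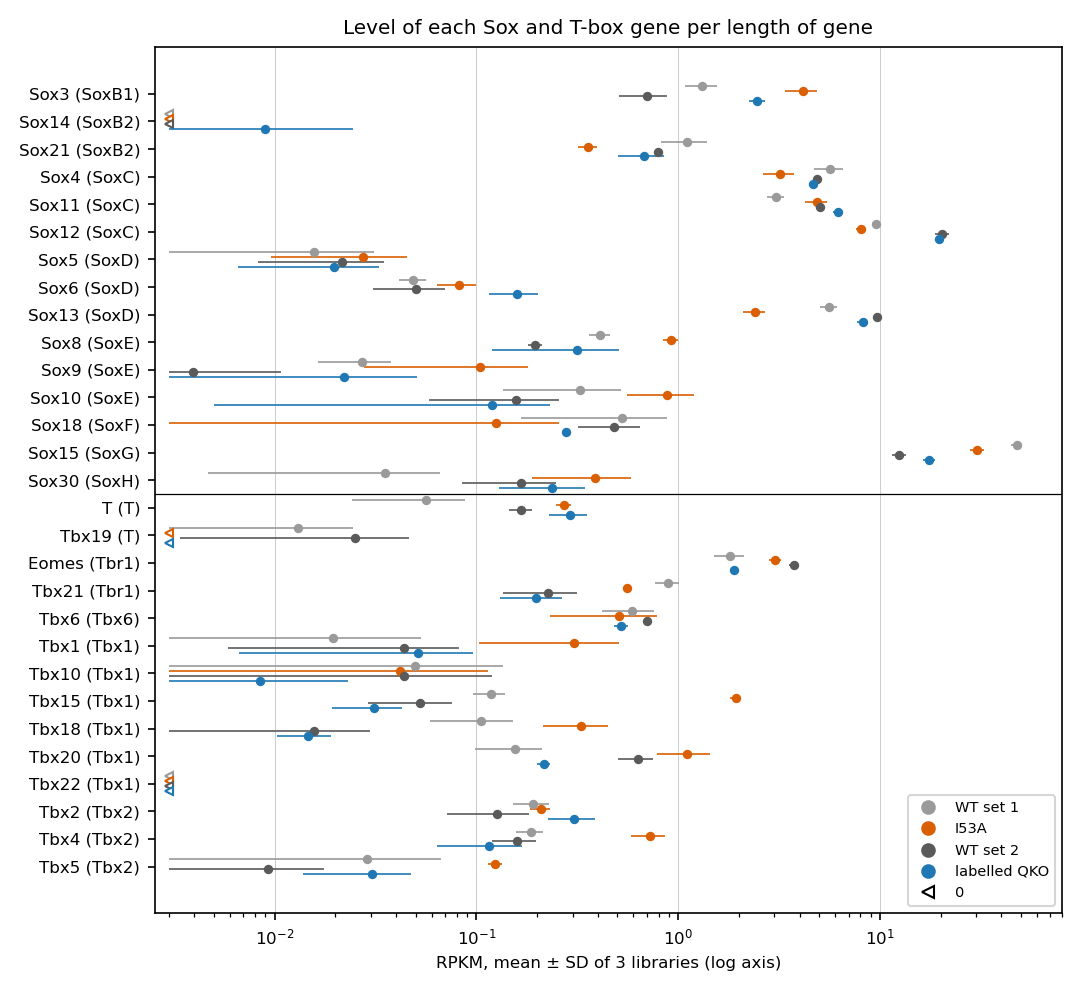
Level of each of the 29 members (rows, with their subgroup) as mean RPKM ± SD of 3 libraries in each group on a log axis, with open triangles at the left edge for a mean of 0 and bars cut at the edge. Sox15 reaches 47.9 RPKM in wild type cells of set 1, and most T-box genes lie under 1 RPKM in every group.

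The first comparison asked what changes in the I53A cells, in which the Rnf2 transcript was also lower. In I53A cells, 10 members rose and 4 fell of the 20 that passed the filter on low counts, 4 Sox and 6 T-box genes up, and 4 Sox and 0 T-box genes down (edgeR's quasi-likelihood test, Benjamini-Hochberg adjusted p under 0.05 over all genes tested). Across all 15536 genes tested, 35.5% were called, 18.1% higher and 17.4% lower. Tbx15, Sox30 and Tbx20 rose the most, and the falls were in Sox genes that wild type cells expressed at several CPM or more. The filter asks for about 0.562 CPM in 3 libraries. For 7 of the 20 (Sox6, Sox10, Sox30, T, Tbx15, Tbx18 and Tbx20), every I53A library reached this level but not every wild type library did. Such genes are said below to have passed only through the I53A libraries, and likewise for the libraries labelled QKO. Some wild type libraries of Sox10, Tbx18 and Tbx20 reached the level too. The filter favours genes that are higher in I53A, and 5 of these 7 were among the 10. Of the 13 members that reached the filter in every wild type library, 5 rose, 4 fell and 4 were not called. The median log2 fold change of the 20 was 0.72, against -0.001 over all genes tested, and this median includes the 7. It therefore does not show a shift of the members as a whole. With the 13 ordered by log2 fold change, the middle gene was Tbx6 at -0.22. With replicates 1 and 2 alone, which leaves out the libraries that stood apart, 10 rose and 4 fell as well. With the replicate number as a block, 11 rose and 5 fell, and the genes called over all tested went from 5512 to 8798. RNA from whole cultures cannot tell fewer cells of a type from less RNA per cell.

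Sox3, the SoxB1 gene nearest to Sox2 and a marker of neural progenitors, measured 2.18, 3.01 and 3.00 CPM in the wild type libraries against 10.0, 8.57 and 7.02 CPM in I53A. The groups were well apart, and Sox3 rose by 1.64 ± 0.21 on the log2 scale (SE, edgeR adjusted p = 0.000689). Sox21 belongs to the SoxB2 subgroup, whose proteins act against SoxB1 in neural progenitors. It went the other way, from 4.24, 3.12 and 5.28 CPM to 1.21, 1.51 and 1.34 CPM, and fell by 1.64 ± 0.27 (edgeR adjusted p = 0.00231). Every I53A library was thus above wild type for the first gene and below it for the second.

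The SoxC genes, which act in neuronal differentiation and in many progenitors, did not move as one. Sox4 measured 24.3, 24.7 and 32.0 CPM in wild type against 12.8, 14.9 and 18.2 CPM in I53A, a fall of 0.84 ± 0.17 on the log2 scale (edgeR adjusted p = 0.00561). Sox11 measured 5.84, 5.82 and 6.85 CPM against 9.51, 8.79 and 11.2 CPM, and rose by 0.66 ± 0.16 (edgeR adjusted p = 0.0135). Neither gene had overlapping groups, but Sox11 rested on single libraries: its adjusted p by edgeR was 0.0577 without wild type replicate 1 and 0.0553 without wild type replicate 2, in a range of 0.000597 to 0.0577 over 14 alternatives. Sox12 ranged over 38.7 to 42.0 CPM for wild type and 32.1 to 35.9 CPM for I53A and was not called (log2 fold change -0.26 ± 0.09, edgeR adjusted p = 0.0536). It was called lower with the replicate number as a block (edgeR adjusted p = 0.00651, or 0.0102 with I53A replicates 1 and 2 exchanged) and with the spread of all 12 libraries (0.0154), in a range of 0.00651 to 0.162 over 14 alternatives.

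Among the SoxD genes, Sox13, known from T cell development, measured 23.6, 22.2 and 26.8 CPM in wild type against 9.51, 9.70 and 11.8 CPM in I53A. It fell by 1.25 ± 0.13 on the log2 scale (edgeR adjusted p = 0.000309), with no overlap. Its relatives Sox5 and Sox6, which work with Sox9 in cartilage, were low: Sox6 ranged over 0.370 to 0.500 CPM for wild type and 0.581 to 0.896 CPM for I53A and was not called, and Sox5 had 12 counts over the wild type libraries and 19 over I53A, too few to be tested.

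The SoxE genes are known from neural crest, glia, cartilage and testis. Sox8 measured 1.38, 1.11 and 1.36 CPM in wild type against 2.96, 2.59 and 3.06 CPM in I53A, and rose by 1.14 ± 0.24 on the log2 scale (edgeR adjusted p = 0.00723). Sox10 ranged over 0.500 to 1.49 CPM for wild type and 1.4 to 3.06 CPM for I53A. These ranges overlap in 1 wild type library, and Sox10 was not called (log2 fold change 1.36 ± 0.47, edgeR adjusted p = 0.0509). It was called higher under 7 of 14 alternatives: by DESeq2 (adjusted p = 0.0384), and by edgeR with a filter of 1 CPM (0.0495), with no filter (0.0313), with the replicate block (0.00631, or 0.0121 with I53A replicates 1 and 2 exchanged), without wild type replicate 1 (0.0263) and without I53A replicate 2 (0.0391). The adjusted p ranged from 0.00631 to 0.152 over all 14. Sox9 went from 6 counts over wild type to 23 over I53A, of which I53A replicate 1 held 15. The ratio for equal depth was 3.90 (exact 95% interval 1.54 to 11.7), and Sox9 was not tested. This interval, like the others given for counts, covers counting error only.

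Of the remaining Sox genes, Sox15, the highest member per length in set 1, fell. It measured 43.9, 41.0 and 38.8 CPM in wild type against 25.8, 24.4 and 28.4 CPM in I53A, a fall of 0.67 ± 0.10 on the log2 scale (edgeR adjusted p = 0.00128) with no overlap. Sox30, a gene of male germ cells, stood at 0.159, 0.159 and 0 CPM in wild type (6 counts in all) and at 1.85, 0.809 and 0.821 CPM in I53A (61 counts). Its log2 fold change was 3.26 ± 0.83 (edgeR adjusted p = 0.00767), and replicate 1 of I53A alone held 35 of the 61 counts. Sox18, a SoxF gene of endothelial cells, went from 41 counts over wild type to 9 over I53A, a ratio of 0.223 (exact 95% interval 0.0955 to 0.467), and did not pass the filter. Its groups overlapped, with 7, 13 and 21 counts in the wild type libraries and 2, 1 and 6 in I53A (0.371 to 1.5 and 0.0539 to 0.448 CPM).

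The T-box genes tested in set 1 either rose or were not called. Of those that rose, T, Tbx15, Tbx18 and Tbx20 passed the filter only through the I53A libraries, which favoured this direction. Of the T-box genes at the filter in every wild type library, Eomes and Tbx4 rose, and Tbx21, Tbx6 and Tbx2 were not called. Eomes, which acts in trophoblast stem cells and in the streak, measured 8.97, 6.5 and 7.14 CPM in wild type against 13.1, 11.6 and 13.1 CPM in I53A. It rose by 0.72 ± 0.16 on the log2 scale (edgeR adjusted p = 0.00857), with no overlap. T, the primitive streak and notochord gene, was far lower, with 4, 2 and 1 counts in wild type (0.0714 to 0.212 CPM) and 13, 11 and 8 in I53A (0.593 to 0.687 CPM). It was called higher (edgeR adjusted p = 0.0148), but not by DESeq2 (adjusted p = 0.0528) and not by edgeR without wild type replicate 2 (0.0664) or I53A replicate 1 (0.0608), in a range of 0.00277 to 0.0664 over 13 alternatives.

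Among the T-box genes, the subgroup of Tbx1 held the 2 largest rises. Tbx15, a gene of limb, skin and adipose tissue, measured 0.371, 0.529 and 0.428 CPM in wild type against 7.18, 7.76 and 6.87 CPM in I53A. All I53A libraries were far above every wild type library, and the log2 fold change was 4.00 ± 0.25 (edgeR adjusted p = 1.29e-05). Tbx20, needed for the growth of the heart, measured 0.743, 0.423 and 0.928 CPM against 3.59, 4.85 and 6.49 CPM, and rose by 2.83 ± 0.37 (edgeR adjusted p = 0.000634). Tbx18, a gene of the sinus node, epicardium and somites, measured 0.318, 0.740 and 0.428 CPM against 2.11, 1.02 and 1.49 CPM, and rose by 1.6 ± 0.46 (edgeR adjusted p = 0.0239). Each of these 3 genes had no overlap between groups. All 3 passed the filter only through the I53A libraries, which favours such a gap. The call of Tbx18 in edgeR depended on 2 libraries (adjusted p = 0.092 with replicate 1 of wild type left out and 0.111 with replicate 1 of I53A left out), in a range of 0.00296 to 0.111 over 14 alternatives. Tbx1, a gene of the pharyngeal arches, went from 2 counts over wild type to 26 over I53A (ratio 13.2, exact 95% interval 3.31 to 115) and was not tested. Tbx10 had 5 and 3 counts.

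Tbx4, a hindlimb and lung gene, and Tbx2, a repressor active in the heart and limbs, lie on chromosome 11 with 44473 bases between them (mm9, Tbx2 from 85646053 to 85655450 and Tbx4 from 85699924 to 85729599). In set 1 Tbx4 was called and Tbx2 was not, and the difference between the genes was not tested. Tbx4 measured 0.743, 0.582 and 0.571 CPM in wild type against 2.59, 2.86 and 1.94 CPM in I53A, and rose by 1.94 ± 0.31 on the log2 scale (edgeR adjusted p = 0.00176). Tbx2 lay at 0.584 to 0.846 CPM and at 0.672 to 0.845 CPM, within the same range (log2 fold change 0.12 ± 0.36, edgeR adjusted p = 0.824). Tbx5, the forelimb and heart gene, went from 5 counts over wild type to 25 over I53A (ratio 5.09, exact 95% interval 1.91 to 17.0) and was not tested. The others were not called or not measured well: Tbx21 ranged over 1.91 to 2.50 CPM for wild type and 1.34 to 1.43 CPM for I53A (edgeR adjusted p = 0.067), Tbx6, the paraxial mesoderm gene, over 0.714 to 1.27 and 0.522 to 1.48 CPM (0.743), and Tbx19, a pituitary gene, had 2 counts and 0. Of the 13 members that reached the filter in every wild type library, 11 had groups that did not overlap, against 49.2% of all genes tested. So did 6 of the 7 that passed only through the I53A libraries, where the filter itself favours such a gap.

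**Figure D3:**
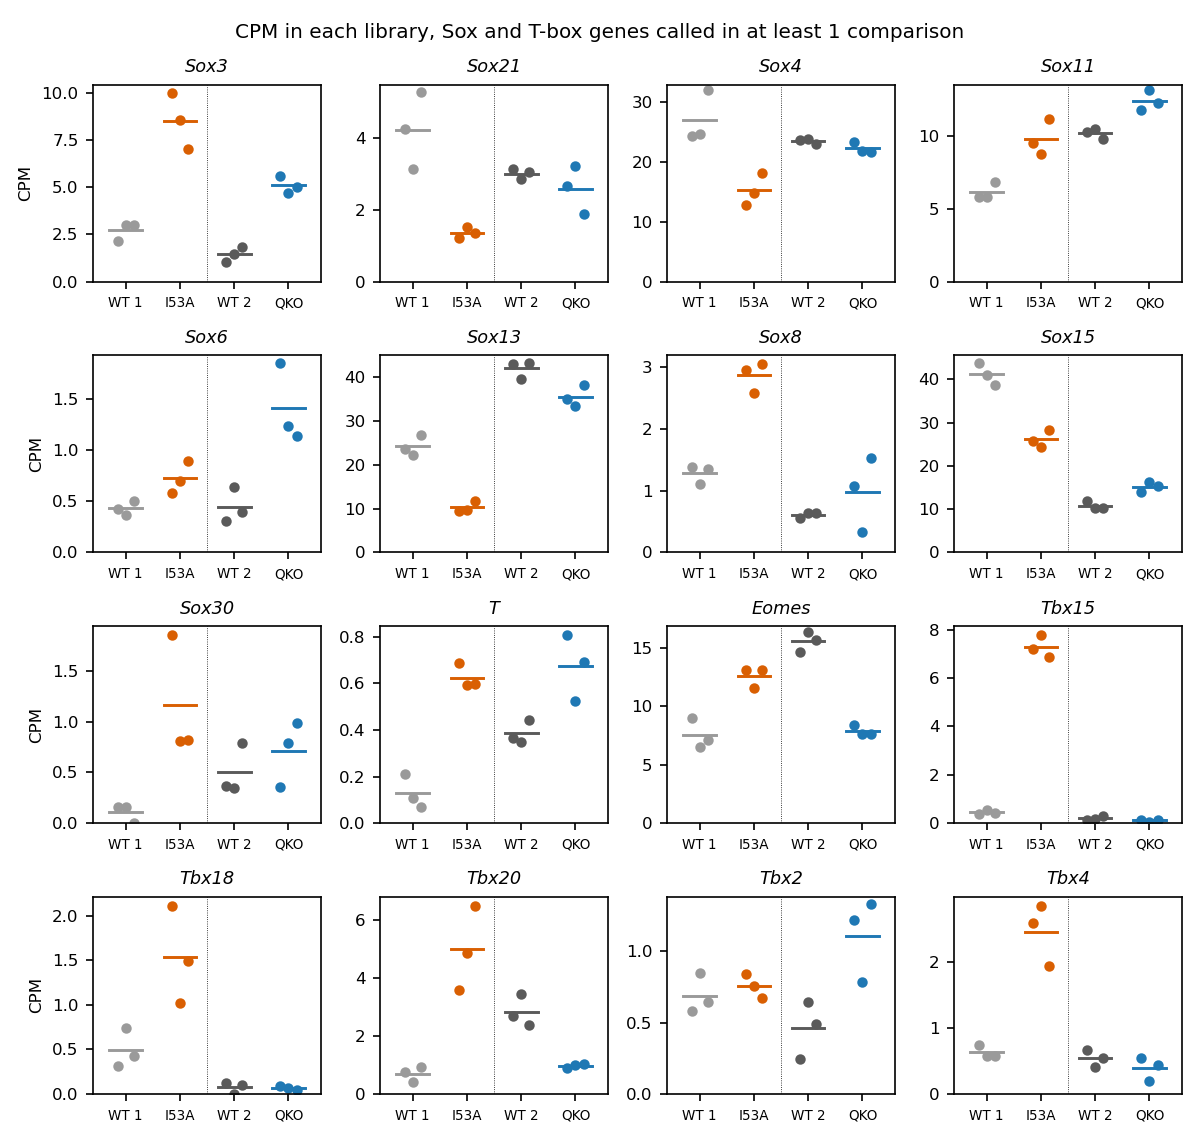
CPM (y axis, from 0, with its own range in each panel) in each of the 12 libraries for the 16 members called in either comparison, with a bar at the mean of each group of 3; WT 1 and I53A are set 1, WT 2 and QKO (the libraries labelled QKO) are set 2. Tbx15 lies at 6.87 to 7.76 CPM in I53A and under 0.6 CPM elsewhere, and Sox3 is above its own wild type in both sets.

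The second comparison asked what changes in the libraries labelled QKO. There 5 members rose and 3 fell of 17 tested, against 57.7% of all 15439 genes called, 28.7% higher and 29.0% lower. The rises were Sox3, Sox11, Sox6, Sox15 and Tbx2, and the falls Sox13, Eomes and Tbx20. Of the 12 members that reached this filter (about 0.506 CPM) in every wild type library, 3 rose, 3 fell and 6 were not called, and 8 had groups that did not overlap, against 61.4% of all genes tested. Sox6 and Tbx2 passed only through the libraries labelled QKO, which favoured a higher level there. The median log2 fold change of the 17 was -0.07, against -0.003 over all genes tested, and this median includes both. The 8 called of 17 were thus no larger a share than among all genes.

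Sox3 and Sox6 had the highest fold changes among the Sox genes tested, within their errors of each other. Sox3 measured 1.04, 1.46 and 1.82 CPM in wild type against 5.58, 4.72 and 4.99 CPM in the libraries labelled QKO, and rose by 1.81 ± 0.23 on the log2 scale (edgeR adjusted p = 5.37e-10). Sox6 measured 0.306, 0.642 and 0.393 CPM against 1.85, 1.24 and 1.14 CPM, and rose by 1.67 ± 0.42 (edgeR adjusted p = 0.000285). For both genes the groups were apart, though Sox6 was tested only because its level in the libraries labelled QKO passed the filter.

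Smaller changes were called in genes at higher levels. Sox15 measured 11.8, 10.3 and 10.2 CPM in wild type against 14.0, 16.2 and 15.4 CPM in the libraries labelled QKO, and rose by 0.50 ± 0.11 on the log2 scale (edgeR adjusted p = 7.09e-05). Sox11 measured 10.3, 10.5 and 9.81 CPM against 11.8, 13.2 and 12.3 CPM, and rose by 0.29 ± 0.11 (edgeR adjusted p = 0.0232). Sox13 measured 43.0, 39.6 and 43.3 CPM against 35.1, 33.5 and 38.1 CPM, and fell by 0.23 ± 0.07 (edgeR adjusted p = 0.00327). None of these groups overlapped. Sox11 lost its call by DESeq2 (adjusted p = 0.0868), and by edgeR without wild type replicate 3 (0.071), without QKO replicate 2 (0.0915) or with the spread of all 12 libraries (0.0675), in a range of 0.0175 to 0.0915 over 12 alternatives. Sox13 lost it only with the spread of all 12 libraries (edgeR adjusted p = 0.0602, in a range of 0.00124 to 0.0602).

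Eomes and Tbx20 fell. Eomes measured 14.7, 16.4 and 15.7 CPM in wild type against 8.37, 7.66 and 7.65 CPM in the libraries labelled QKO, a fall of 0.97 ± 0.11 on the log2 scale (edgeR adjusted p = 1.07e-10). Tbx20 measured 2.69, 3.44 and 2.36 CPM against 0.9, 0.982 and 1.04 CPM, a fall of 1.53 ± 0.29 (edgeR adjusted p = 5.69e-06). Neither gene had overlapping groups. Tbx2 measured 0.245, 0.642 and 0.491 CPM against 1.22, 0.786 and 1.33 CPM, and rose by 1.28 ± 0.43 (edgeR adjusted p = 0.00644). Its call was lost by DESeq2 (adjusted p = 0.0516) and by edgeR without wild type replicate 1 (0.0541), in a range of 0.00485 to 0.0541 over 11 alternatives. Its neighbour Tbx4 ranged over 0.408 to 0.673 CPM for wild type and 0.196 to 0.540 CPM for the libraries labelled QKO and was not called.

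The remaining members tested in set 2 were not called. Sox4 (21.6 to 23.8 CPM over the 6 libraries) and Sox12 (77.7 to 90.6 CPM) had log2 fold changes of -0.07 ± 0.08 and -0.06 ± 0.05. Sox21 (1.88 to 3.21 CPM), Sox8 (0.327 to 1.53 CPM), Sox18 (0.444 to 1.08 CPM), Sox30 (0.350 to 0.987 CPM), Tbx6 (0.855 to 1.29 CPM) and Tbx21 (0.306 to 0.736 CPM) were low. Sox8 was called higher without QKO replicate 2, which had 5 counts against 24 and 31 in the other two (edgeR adjusted p = 0.0241, in a range of 0.0241 to 0.643 over 11 alternatives). Among the 12 members not tested, T went from 21 counts over wild type to 40 over the libraries labelled QKO (ratio 1.78, exact 95% interval 1.02 to 3.17). Tbx15 had 11 and 7 counts, Tbx18 4 and 4, Sox10 24 and 20, Sox5 16 and 17, and Sox9 1 and 6. Tbx5 had 2 and 7, Tbx1 4 and 5, Tbx10 4 and 1 and Tbx19 4 and 0.

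**Figure D4:**
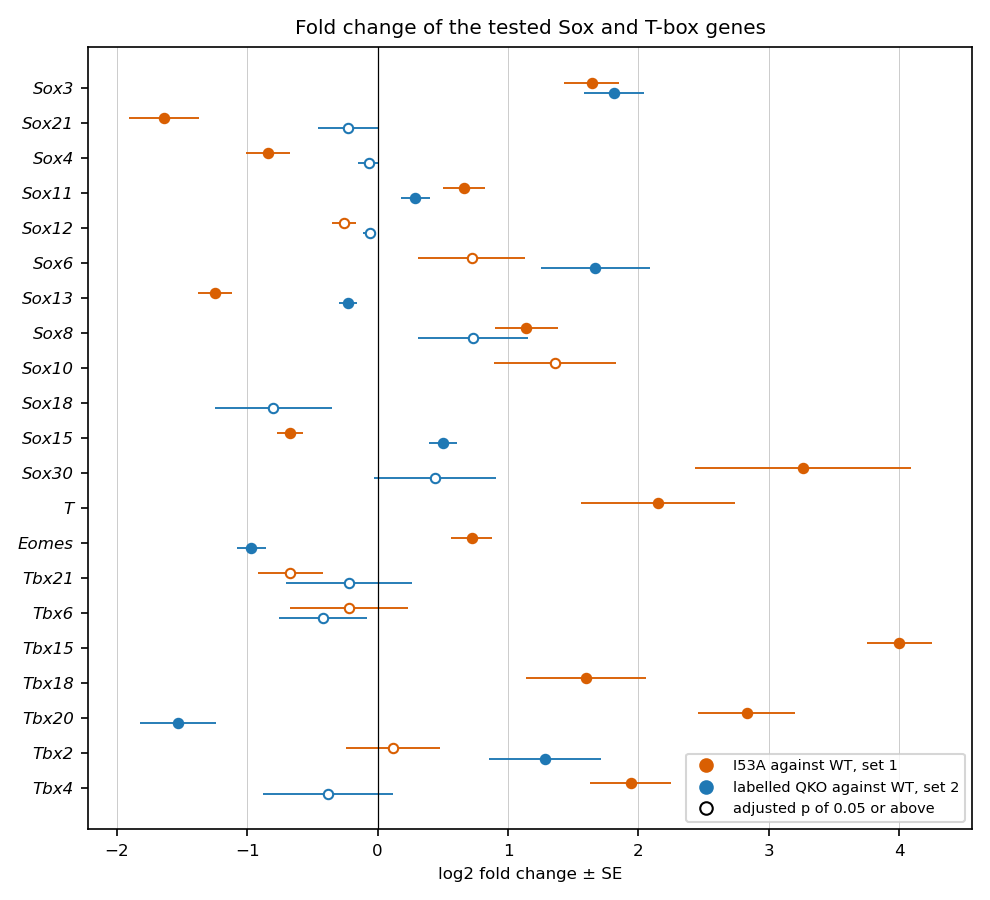
Log2 fold change ± SE (x axis) of each member tested in I53A against wild type of set 1 (orange) and in the libraries labelled QKO against wild type of set 2 (blue), filled where the adjusted p was under 0.05. Tbx15 at 4.00 in I53A lies farthest to the right, and Tbx20, Eomes and Sox15 have filled points on both sides of 0.

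The comparisons use separate wild type libraries, so their effects could be set against each other in an interaction over all 12 libraries. Of the 16 members tested in both comparisons, 6 were called in both, against 23.1% of 14589 genes: 3 in the same direction (15.4% of all genes) and 3 in opposite directions (7.7%). Sox3 and Sox11 rose in both, and Sox13 fell in both. Sox15 fell in I53A and rose in the libraries labelled QKO, while Eomes and Tbx20 rose in I53A and fell in the libraries labelled QKO. The difference between effects, I53A minus QKO, was called for 9 of 21 members, 5 higher and 4 lower, against 36.1% of 16501 genes, 18.0% higher and 18.1% lower.

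The members with a higher effect in I53A were mostly T-box genes. The difference was 4.37 ± 0.45 on the log2 scale for Tbx20 (edgeR adjusted p = 2.65e-06), 1.71 ± 0.18 for Eomes (edgeR adjusted p = 4.23e-06) and 2.35 ± 0.55 for Tbx4 (edgeR adjusted p = 0.0036). For Tbx15 it was 4.73 ± 0.63 (edgeR adjusted p = 3.71e-05), a value that rests on 11 and 7 counts in the groups of set 2. Tbx15 had at most 10 counts in any library outside I53A. It passed the filter of this test only through the I53A libraries, which favoured a higher effect there. These opposite changes started from different levels: Tbx20 stood at 0.698 ± 0.255 CPM in wild type of set 1 and 2.83 ± 0.556 CPM in wild type of set 2, and Eomes at 7.54 ± 1.28 and 15.6 ± 0.855 CPM. The wild type of set 2 was thus above I53A for Eomes (12.6 ± 0.862 CPM) and below it for Tbx20 (4.98 ± 1.46 CPM). Sox30 had a difference of 2.83 ± 1.01 (edgeR adjusted p = 0.0262), which was lost in edgeR without I53A replicate 1 (0.0767), wild type replicate 3 of set 2 (0.103) or QKO replicate 1 (0.0593), in a range of 0.0075 to 0.103 over 17 alternatives.

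The 4 members with a lower effect in I53A were all Sox genes. The difference was -1.39 ± 0.35 on the log2 scale for Sox21 (edgeR adjusted p = 0.00655), -1.16 ± 0.14 for Sox15 (edgeR adjusted p = 1.32e-05), -1.0 ± 0.14 for Sox13 (edgeR adjusted p = 7.58e-05) and -0.75 ± 0.18 for Sox4 (edgeR adjusted p = 0.00413). Sox13 thus fell in both comparisons but more in I53A. For Sox3 no difference was called (-0.15 ± 0.31, edgeR adjusted p = 0.745), nor for Sox11 (0.39 ± 0.17, edgeR adjusted p = 0.0993), which does not show equal effects. Sox6 (-0.92 ± 0.58, edgeR adjusted p = 0.236) and Tbx2 (-1.13 ± 0.56, edgeR adjusted p = 0.128) were called in set 2 alone, yet their effects were not shown to differ, and the same held for Sox8, T and Tbx18, called in set 1 alone, with adjusted p of 0.577, 0.124 and 0.286 in edgeR.

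**Figure D5:**
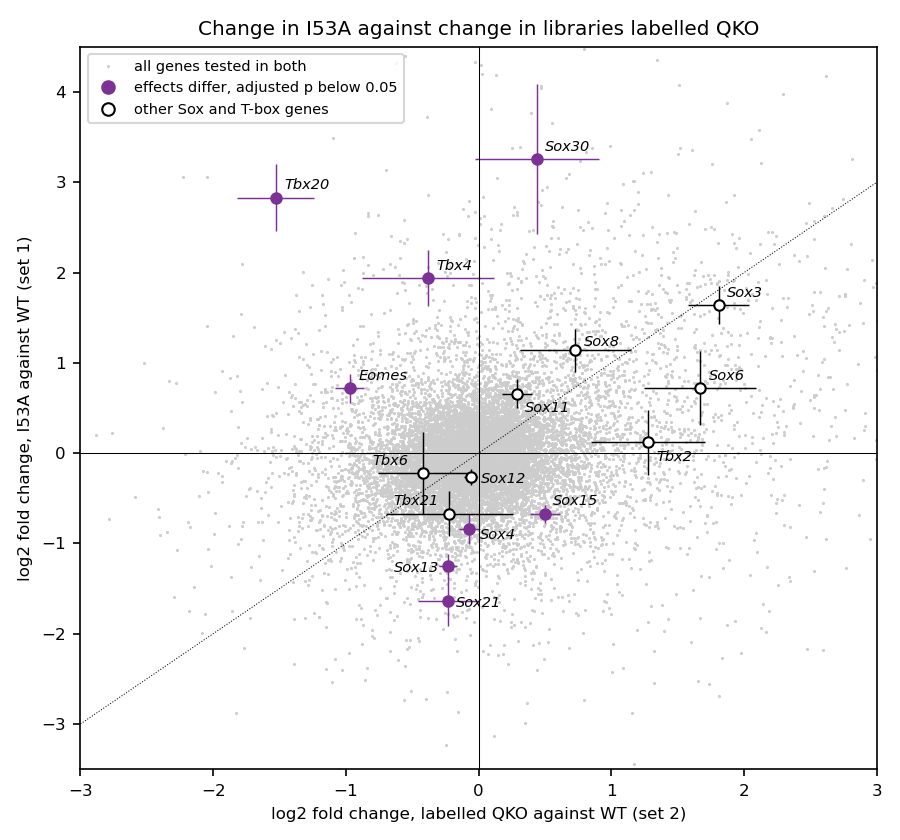
Log2 fold change in the libraries labelled QKO (x axis) against that in I53A (y axis) for the 14589 genes tested in both (grey, 163 of them beyond the axes) and the 16 members tested in both (points with SE bars), filled where the effects differed with adjusted p under 0.05; the dotted line marks equal effects. Tbx20 and Eomes lie upper left, Sox15 lies lower right, and Sox3 lies near the line at 1.81 and 1.64.

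The family genes set apart by the rule moved as follows. Sox2, the SoxB1 factor of pluripotency, stood at 533 ± 65.1 CPM in wild type and 338 ± 34.1 CPM in I53A and fell by 0.67 ± 0.11 on the log2 scale (edgeR adjusted p = 0.00197), and in set 2 it rose by 0.16 ± 0.04 (edgeR adjusted p = 0.000401). The SoxF genes of primitive endoderm rose in I53A, Sox17 by 5.08 ± 0.31 and Sox7 by 2.68 ± 0.23. Sox17 passed the filter only through the I53A libraries, which favoured a rise there. Sox18, the third SoxF gene, had fewer counts in I53A as given above, in groups that overlapped. In set 2 Sox7 was not called (0.29 ± 0.24, edgeR adjusted p = 0.311), and Sox17 went from 16 counts over wild type to 57 over the libraries labelled QKO (ratio 3.32, exact 95% interval 1.88 to 6.20). Tbx3 was called in set 2, with a rise of 0.73 ± 0.04 (edgeR adjusted p = 5.48e-21), and was not called in set 1 (0.46 ± 0.27, edgeR adjusted p = 0.234), where it was called higher with replicates 1 and 2 alone (0.54 ± 0.05, edgeR adjusted p = 1.97e-10), with the replicate block (edgeR adjusted p = 1.95e-07) and without wild type replicate 3 (0.028). Mga, a large T-box protein that also binds the Max protein, fell by 0.79 ± 0.14 in I53A (edgeR adjusted p = 0.00323) and by 0.16 ± 0.04 in set 2 (edgeR adjusted p = 0.000654). With the spread of all 12 libraries, Sox2 and Mga were not called in set 2 (edgeR adjusted p = 0.171 and 0.278). Tbr1 had 0 to 6 counts and Sry 0 in all libraries.

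Other genes of the lineages in which these factors act were counted from lists. The share called over all genes tested was 35.5% in set 1 and 57.7% in set 2. Of 16 genes of the primitive streak and mesoderm, the tissue of T and Eomes, 5 rose and 0 fell of 9 tested in I53A, among them Evx1 (log2 fold change 2.76), Kdr (2.74), Cdx1 (1.96) and Snai1 (1.94). In set 2, 1 rose (Cdx1, 0.44) and 2 fell (Mixl1, -1.26, and Mesp2, -0.76) of 6 tested. Of 10 cardiac genes, the tissue of Tbx20 and Tbx5, 2 rose of 5 tested in I53A (Mef2c, 2.30, and Myh6, 0.78), and 2 rose (Myh6, 1.86, and Myl7, 0.98) and 1 fell (Smyd1, -1.16) of 3 tested in set 2. Neural genes, the setting of SoxB and SoxC, rose in 4 and fell in 1 of 6 tested in I53A, with Zic1 and Pax3 from near 0 in wild type and Pax6 at -1.83. In set 2, Nes (1.26) and Tubb3 (0.83) rose and Pax6 (-0.88) fell, of 3 tested. These lists were used in counting only. Their median log2 fold changes in I53A were 1.30 (streak and mesoderm), 0.57 (cardiac) and 1.63 (neural), beside -0.001 over all genes, but they include genes that passed the filter only through the I53A libraries: 1 of the streak genes (Evx1), 2 of the cardiac genes (Isl1 and Mef2c) and 3 of the neural genes, Zic1 and Pax3 among them. Of the genes that reached the filter in every wild type library, 4 of 6 streak genes rose, 1 of 3 cardiac genes rose, and of 3 neural genes 1 rose and 1 fell. The medians of these genes were 1.62 (streak and mesoderm), 0.57 (cardiac) and 0.01 (neural).

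Neural crest and cartilage genes, the tissues of SoxE and SoxD, were mixed. In I53A 1 neural crest gene rose (Ets1, 2.47) and 2 fell (Mitf, -1.01, and Ngfr, -0.44) of 7 tested, and 1 cartilage gene rose (Acan, 1.09) and 2 fell (Matn1, -1.59, and Matn3, -0.65) of 5. In set 2, 4 neural crest genes rose and 2 fell of 6, with Ets1 at 0.98 and Erbb3 at -0.62, and 2 cartilage genes rose and 2 fell of 6, with Acan at 2.40 and Matn3 at -0.88. The median over tested genes in I53A was 0.03 for neural crest and 0.38 for cartilage. Over the 4 cartilage genes that reached the filter in every wild type library it was -0.14.

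Markers of other cell types were counted in the same way. Over all genes tested, 18.1% were higher and 17.4% lower in I53A, and 28.7% higher and 29.0% lower in set 2. The lists are short, and their counts were not tested against these shares. The 11 primitive endoderm markers, which include Sox7 and Sox17, all passed the test as higher in I53A, led by Cubn (7.76), Srgn (6.03), Foxa2 (5.63) and Dab2 (5.32), and their summed level went from 122 to 132 CPM in the wild type libraries to between 2170 and 2260 CPM. Of the 11, 3 passed the filter only through the I53A libraries, Sox17 and Foxa2 among them, which favoured a rise there. The other 8 reached it in every wild type library, and all 8 rose. In set 2, 5 of 9 tested rose and the sum went from 122 to 139 CPM to between 151 and 160 CPM. Srgn and Cubn are among these 5 and passed the filter only through the libraries labelled QKO. Of the 7 that reached it in every wild type library, 3 rose. Of the markers of trophoblast, the other tissue of Eomes, 5 of 7 tested rose in I53A (Hand1, 2.76, Krt18, 1.82, Gata3, 1.78, and Krt8, 1.65, among them), with sums of 66.6 to 67.9 and 158 to 171 CPM. In set 2, 3 of 5 fell (Krt8, -1.18, Tead4, -1.11, and Krt18, -0.88) and 1 rose (Ascl2, 1.64), with sums of 90.2 to 102 and 48.6 to 48.8 CPM. Of 12 markers of fibroblast feeder cells 5 rose of 6 tested in I53A (sums of 44.1 to 52.5 and 95.4 to 118 CPM) and 4 of 6 in set 2 (52.0 to 58.8 and 78.2 to 81.4 CPM), with Col1a2 at 3.94 and 4.83. Postn, Dcn and Prrx1 were at 0 in the wild type libraries of set 1, and Lum was at 0 in I53A. In set 2, Col3a1, Twist2, Postn, Lum, Dcn and Prrx1 were at 0 in the wild type libraries, and of these Lum and Dcn were at 0 in the libraries labelled QKO as well. Col1a2 passed the filter only through the mutant libraries in both sets. Definitive endoderm genes had 2 of 4 tested higher in I53A (Foxa2 and Foxa1, at 3.10). Both passed the filter only through the I53A libraries, though Foxa1 averaged 0.817 CPM in wild type of set 1. Of 3 tested in set 2, 1 was higher (Foxa1, 1.24) and 1 lower (Hhex, -0.78). Of the 10 stem cell markers, 1 rose (Tdgf1, 0.99) and 4 fell in I53A, among them Esrrb (-0.60) and Zfp42 (-0.50), and 6 rose and 3 fell in set 2, with Zfp42 at 0.86 and Nanog at 0.45. Among the genes named from these lists, Mef2c, Ngfr and Pax6 in I53A and Mixl1, Foxa1 and Ets1 in set 2 lost their calls under at least 1 alternative. The part of these cell types in the changes of the Sox and T-box genes was not tested.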

How the data were processed

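RNA of mouse R1 embryonic stem cells was sequenced in 12 libraries. The chromatin samples of the series were not analysed here. The deposited files hold raw counts, 1 table for each library. Per the file headers, featureCounts 1.6.3 counted read pairs per gene name against GENCODE gene models of mm9, with no option for strand or multiple mapping. The submitters' processing notes also name HISAT2, Bowtie2, SAMtools and DESeq2, and the alignments of set 1 carry TopHat in their names, so the aligner of each set is not settled. Libraries held 12585621 to 23378930 counts, without molecular identifiers.

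Counts were normalised by TMM, filtered with filterByExpr and tested two-sided with edgeR 4.0.16 (robust quasi-likelihood, R 4.3.3), with Benjamini-Hochberg adjustment over all genes tested and a threshold of 0.05. Fold changes come from the 6 libraries of a set, and CPM and RPKM, computed here from the deposited counts, use TMM over all 12. The test was run on simulated counts with the same spread for all genes and no replicate effect, with changes placed only in better counted genes. This check does not cover members with few counts or the replicate differences of set 1. Alternatives were DESeq2 1.42.0 and its size factors, other filters, leaving out each replicate, a replicate block, replicates 1 and 2 of set 1 alone and the spread of all 12 libraries. In set 1 same-numbered libraries deviated together (correlations of deviations 0.346, 0.401 and 0.619, over all genes tested), which the rule used here takes as pairing. Replicates 1 and 2 also correlated across numbers (0.307 and 0.338), so the correlations set replicate 3 apart and hardly tell replicate 1 from 2. Since the table names of I53A replicates 1 and 2 go against the labels, a block with these 2 exchanged was added after the data were seen. Values per library are given for members with adjusted p under 0.05 in any test and a group mean of at least 1 CPM, and by ranges or counts otherwise. From each list up to 4 called genes with the largest changes are named, apart from some that are not reported here. The members, the lists and this rule were chosen with earlier results of these data known.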

Additional observations from a re-analysis of the deposited data

Results flagged for a closer look

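A total of 9 members had effects that differed between the comparisons by the interaction test over all 12 libraries (I53A minus its wild type, less labelled QKO minus its wild type, edgeR adjusted p under 0.05). On the log2 scale the difference was 4.73 for Tbx15, 4.37 for Tbx20, 2.83 for Sox30, 2.35 for Tbx4 and 1.71 for Eomes, all with the higher effect in I53A. Tbx15 passed the filter of this test only through the I53A libraries, which favoured that direction. The difference was -1.39 for Sox21, -1.16 for Sox15, -1.0 for Sox13 and -0.75 for Sox4, with the lower effect in I53A. All 3 libraries of each mutant group lay on opposite sides of their own wild type for Tbx20, Eomes and Sox15. Each set has its own wild type, and the sets differ in how their alignments are named, so set and genotype cannot be told apart beyond the comparison with the wild type of the same set.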

How the results depend on the processing

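Of the 14 members called in I53A, 11 kept direction and call under every alternative that tested them, with Sox11, T and Tbx18 as the exceptions. Of the 8 called in set 2, 5 did, with Sox11, Sox13 and Tbx2 as the exceptions, and of the 9 called in the interaction 8 did, with Sox30 as the exception. The report gives their values. Members called higher in set 2 numbered 5, and 3 by DESeq2, where Sox11 and Tbx2 missed the threshold. The number of all genes called in set 1 was 5512, and 8798 with the replicate block, 8410 with the block after I53A replicates 1 and 2 were exchanged, and 8343 with replicates 1 and 2 only. The exchanged block called the same number of members as the block, 11 higher and 5 lower. Besides Sox12 and Sox10, whose blocked values stand in the report, the block changed the call of no other member in any of the 3 tests, and the exchanged block that of no other member in set 1. In set 2 the replicate numbers did not pair the libraries (correlations of deviations 0.0275, -0.009 and 0.0794), and the block moved the genes called from 8903 to 9080. Signs turned only in members that were not called: Tbx6 in I53A (-0.75 to 0.03 when 1 library was left out) was 0.03 without I53A replicate 3, Tbx21 in set 2 (-0.5 to 0.05) was 0.03 without wild type replicate 3 and 0.05 without QKO replicate 1, and in the interaction Tbx6 (-0.31 to 0.47) was -0.31 without I53A replicate 1 and Sox3 (-0.39 to 0.01) was 0.01 without wild type replicate 1 of set 2 and 0.03 with replicates 1 and 2 of set 1 alone, a setting added after the data were seen. Members with under about 10 counts in a library could show only large changes at this depth.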
